A study of Homo sapiens with 12 samples.

Results

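The EGR, NR4A and IER genes are 3 families of immediate-early genes, and their transcripts were followed in U2OS-ERα cells given estradiol with or without depletion of the coactivator SRC-1. The set was defined by name, as EGR1 to EGR4, NR4A1 to NR4A3, IER2, IER3 and IER5. A gene was measured by the probe set (the group of probes on the array read out as 1 value) whose annotation is that symbol alone, and where there were several, by the one with the highest mean over all arrays. Of the 10 genes, 9 were measured, out of 18417 symbols with a probe set of their own, and EGR2 was not analysed here. U2OS is an established human osteosarcoma line, and the cells used here carry estrogen receptor α. Whether the line is a single clone is not given in the sources used here. The 4 groups, each of 3 arrays labelled as biological replicates, were non-targeting siRNA with ethanol vehicle (NT_V), non-targeting siRNA with 17-B-estradiol (NT_E), siRNA against NCOA1, the gene of SRC-1, with vehicle (siSRC-1_V), and the same siRNA with estradiol (siSRC-1_E). All cells had thus been transfected with 50 nM of an siRNA pool, were kept in phenol red-free medium with charcoal-stripped serum, and were exposed to hormone or vehicle for 3 h.

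Immediate-early genes are transcribed without the need for new protein synthesis when a cell receives serum, a growth factor or a stress signal, and most of their messages are short-lived. EGR proteins are zinc-finger transcription factors that bind GC-rich DNA, and several of them, EGR1 included, are held in check by the corepressors NAB1 and NAB2. NR4A proteins are orphan nuclear receptors whose activity is set chiefly by how much of them is made rather than by a hormone ligand. The IER genes are grouped by their rapid induction and not by 1 shared function: IER3 is known for effects on cell survival, and IER2 and IER5 are related nuclear proteins. Many promoters of this class carry CArG boxes, the sites of serum response factor, or cAMP response elements, the sites of CREB.

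The targeted transcript followed the labels, NCOA1 being 7.60-fold lower with SRC-1 siRNA under vehicle and 4.64-fold lower under estradiol. Within the SRC-1 siRNA cells NCOA1 was 2.00-fold higher with estradiol than with vehicle (1.00 ± 0.11 log2, SE; limma adjusted p = 0.00029; 0.53 ± 0.21 and 0.461 with the covariate described in this paragraph). With non-targeting siRNA its estradiol change was 0.29 log2 and was not called. The difference of the 2 estradiol effects was 0.71 log2 and was not called in any fit (limma adjusted p from 0.0667 to 0.743 across the alternatives). The target thus read as less depleted in the hormone arm, but this difference did not pass the test. ESR1, the gene of estrogen receptor α, had group means of 12.16, 12.14, 12.11 and 12.03 log2 in NT_V, NT_E, siSRC-1_V and siSRC-1_E and was not called in any comparison. Of the 8 mesenchymal and bone markers listed, all 8 exceeded the lower quartile of the arrays (5.13 to 5.19 on the log2 scale) on every array. Of the leukocyte markers 2 of 4 did so, of the endothelial markers 3 of 4, and of the epithelial markers 3 of the 3 measured, and signal over background was not measured. Most probe sets exceed the lower quartile by definition, so these counts say little about cell identity. The listed markers that were called included LYZ, a leukocyte gene, at 0.89 log2 for estradiol with non-targeting siRNA and 0.47 log2 with SRC-1 siRNA. LYZ read 3.98 to 5.00 log2, under the lower quartile on every array, so its changes lie in the lowest range of signal. COL1A2, ALPL and TWIST1 of the bone list were also called, while 0 epithelial and 0 endothelial markers were. The part of these called markers in the results was not tested. Across arrays the mean deviation of 4203 probe sets taken as controls went from -0.076 ± 0.043 log2 (SD, n = 3) in NT_V to 0.032 ± 0.036 in NT_E, and from -0.091 ± 0.067 in siSRC-1_V to 0.135 ± 0.042 in siSRC-1_E. This deviation moves with estradiol, and its part in the results was not tested. Calls lost with this deviation as a covariate are named beside the gene; a covariate that separates the treatments also widens the errors.

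IER3 and EGR1 rose with estradiol and NR4A2 fell, with either siRNA, and these were the only 3 of the 9 measured genes that passed the test for estradiol. NR4A3 fell with SRC-1 siRNA, with or without hormone, and was the only measured member to pass that test. A gene was called when its unadjusted limma p was under 0.01 and its p adjusted by the Benjamini-Hochberg method over 29094 probe sets under 0.05. By that rule 2.73% of all probe sets were called for estradiol in control cells and 6.88% in SRC-1-depleted cells, and 1.21% and 1.80% for SRC-1 siRNA under vehicle and under estradiol. In these bulk samples, fewer cells with a transcript and less of it per cell cannot be told apart. The median change of the 9 genes was -0.08 log2 for estradiol with non-targeting siRNA and -0.16 log2 with SRC-1 siRNA, against -0.01 and -0.02 log2 over all probe sets. Groups that did not overlap, in either direction, were found for 5 of the 9 genes for estradiol with non-targeting siRNA (21.0% of all probe sets) and for 7 of 9 with SRC-1 siRNA (25.8%). For SRC-1 siRNA this held for 3 of 9 under vehicle (18.4%) and 2 of 9 under estradiol (22.3%).

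**Figure D1:**
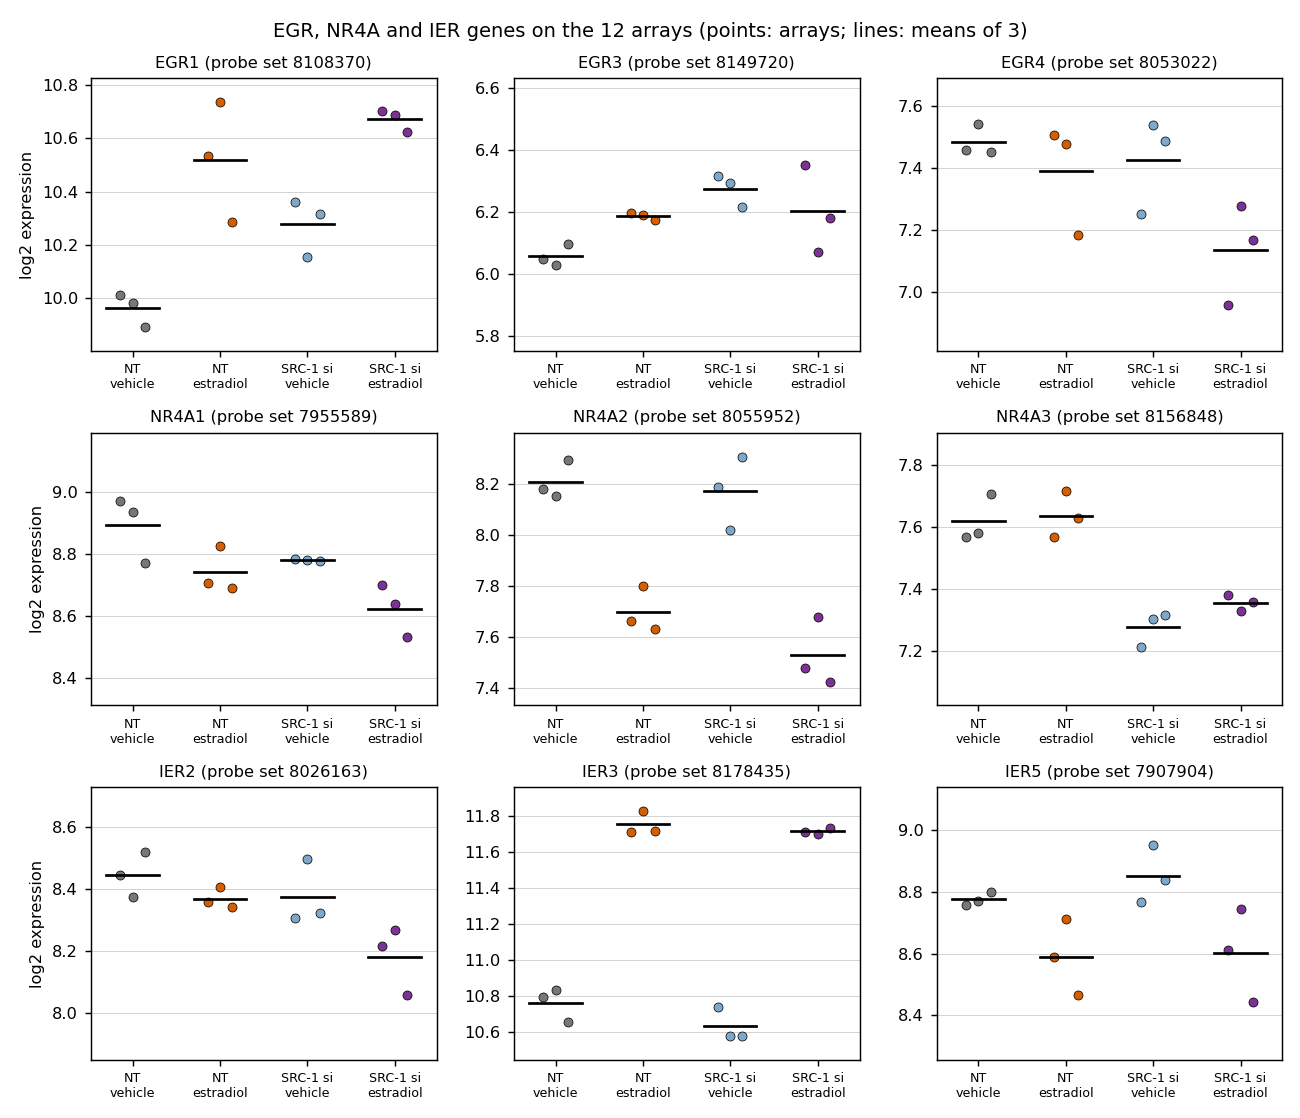
Log2 expression of the 9 measured genes on each of the 12 arrays (points, 3 arrays per group) with the group mean (line); panels have their own vertical range of at least 0.8 log2. NT is non-targeting siRNA and SRC-1 si is siRNA against SRC-1. The IER3 estradiol arrays lie from 11.70 to 11.83, above the vehicle arrays at 10.58 to 10.83, and all 6 NR4A3 arrays with SRC-1 siRNA lie below the 6 with non-targeting siRNA.

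Among the EGR genes, EGR1, the serum-responsive founding member (chr5:138465479-138469303 on GRCh38.p14, per RefSeq), read 10.01, 9.98 and 9.89 log2 in the NT_V arrays and 10.53, 10.74 and 10.28 in the NT_E arrays. With SRC-1 siRNA it read 10.36, 10.15 and 10.32 under vehicle and 10.70, 10.69 and 10.62 under estradiol. Every estradiol array lay above every vehicle array of the same siRNA, and the 3 NT_V arrays were the lowest of all 12. The rise was 1.47-fold with non-targeting siRNA (0.56 ± 0.10 log2, SE; limma adjusted p = 0.009) and 1.32-fold with SRC-1 siRNA (0.40 ± 0.10; adjusted p = 0.0339). Groups that do not overlap upward were found for 10.1% and 12.9% of all probe sets in these comparisons. Both EGR1 calls were lost with the control covariate, at 0.54 ± 0.14 (limma adjusted p = 0.14) and 0.36 ± 0.23 log2 (0.67), and the first also when only the compared groups entered the fit (0.0684). The call with SRC-1 siRNA was lost without replicate 2 or 3 of siSRC-1_V (limma adjusted p = 0.138 and 0.0747), or without replicate 1, 2 or 3 of siSRC-1_E (0.104, 0.0766 and 0.0687), with the change at 0.33 to 0.42 log2.

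EGR3 and EGR4, which are known chiefly from lymphocytes and neurons, did not pass the test for estradiol. EGR3 read 6.03 to 6.10 log2 in NT_V and 6.17 to 6.20 in NT_E, groups that did not overlap, as 10.1% of all probe sets did upward. With SRC-1 siRNA it read 6.22 to 6.32 in siSRC-1_V and 6.07 to 6.35 in siSRC-1_E, groups that overlapped. Its estradiol change was 0.13 log2 with non-targeting siRNA (95% interval -0.01 to 0.27) and -0.07 log2 with SRC-1 siRNA (-0.21 to 0.07). EGR4 read 7.45 to 7.54 in NT_V, 7.18 to 7.51 in NT_E, 7.25 to 7.54 in siSRC-1_V and 6.96 to 7.28 in siSRC-1_E. Its groups overlapped in both hormone comparisons, with changes of -0.09 log2 (-0.33 to 0.14) and -0.29 log2 (-0.52 to -0.06; limma adjusted p = 0.129). With the control covariate the EGR4 values turned to 0.13 and 0.18 log2, so no direction is given for this gene.

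Upstream sequences are shown for EGR1, which rose with estradiol, for EGR4, a relative that was not called, and for NR4A3, the member that fell with SRC-1 siRNA. Each is the 250 bases before the annotated start in the sense of the gene, from RefSeq on GRCh38.p14. Windows of 6 of the 9 measured genes were searched, namely EGR1, EGR4, NR4A1, NR4A3, IER2 and IER5. EGR3 was left out of the search, and no window was available for IER3 and NR4A2. Capitals mark CArG boxes (CC, then 6 bases that are A or T, then GG) and TGACG, the core of the cAMP response element, searched on both strands.
EGR1 upstream window, chr5:138465229-138465478 (+ strand): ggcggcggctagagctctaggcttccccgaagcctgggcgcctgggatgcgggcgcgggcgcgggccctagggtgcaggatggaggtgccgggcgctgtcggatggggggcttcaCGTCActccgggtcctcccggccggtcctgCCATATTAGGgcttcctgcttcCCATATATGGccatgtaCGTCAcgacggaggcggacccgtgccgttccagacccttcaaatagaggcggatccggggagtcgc
EGR4 upstream window, chr2:73293549-73293798 (- strand): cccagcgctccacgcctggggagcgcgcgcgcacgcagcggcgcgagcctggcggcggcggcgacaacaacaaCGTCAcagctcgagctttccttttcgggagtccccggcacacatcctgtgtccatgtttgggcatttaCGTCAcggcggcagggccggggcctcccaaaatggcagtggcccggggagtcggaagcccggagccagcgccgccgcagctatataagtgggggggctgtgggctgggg
NR4A3 upstream window, chr9:99821635-99821884 (+ strand): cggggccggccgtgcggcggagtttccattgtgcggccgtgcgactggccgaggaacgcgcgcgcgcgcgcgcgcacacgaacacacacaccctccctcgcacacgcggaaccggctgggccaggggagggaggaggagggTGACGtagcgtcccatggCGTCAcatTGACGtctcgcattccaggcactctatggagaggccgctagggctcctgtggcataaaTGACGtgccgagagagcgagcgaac
The EGR1 window held 2 CArG boxes, CCATATTAGG at 105 to 96 bases and CCATATATGG at 83 to 74 bases before the start, and 2 TGACG cores. The EGR4 window held 0 CArG boxes and 2 cores, and the NR4A3 window 0 CArG boxes and 4 cores, of which 3 were in the sense of the gene. Of 35116 such windows in the annotation, 1.16% held a CArG box and 21.2% a TGACG core. The full element TGACGTCA, which contains the core on each strand, was in 1.65% of windows and in none of these 3. The palindromic estrogen response element (GGTCA and TGACC with 3 bases of any kind between), in 0.0399% of windows, and the NR4A element AAAGGTCA, in 1.05%, had no match in the windows of the 6 genes. Of the 3 genes called for estradiol, only EGR1 is among these 6, so the absence does not cover IER3 and NR4A2. The EGR element GCGNGGGCG, in 8.41% of windows, matched once in the EGR1 window, as GCGCGGGCG, and in no window of the other 5 genes. These matches describe letters in a short window and not binding.

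Among the NR4A genes, estradiol lowered NR4A2 (also known as NURR1, a receptor needed for dopamine neurons; chr2:156324437-156332721). It read 8.18, 8.15 and 8.29 log2 in NT_V and 7.66, 7.80 and 7.63 in NT_E. With SRC-1 siRNA it read 8.19, 8.02 and 8.31 under vehicle and 7.48, 7.68 and 7.43 under estradiol. All 6 estradiol arrays lay below all 6 vehicle arrays. Within non-targeting siRNA and within SRC-1 siRNA, groups apart in that direction were found for 10.9% and 12.8% of all probe sets. The fall was 1.42-fold with non-targeting siRNA (-0.51 ± 0.09 log2, SE; limma adjusted p = 0.00721) and 1.56-fold with SRC-1 siRNA (-0.64 ± 0.09; adjusted p = 0.00107), where 0.873% and 2.39% of all probe sets were called lower. With the control covariate the sizes were -0.52 ± 0.13 (limma adjusted p = 0.0953) and -0.67 ± 0.20 log2 (0.312), and both calls were lost.

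NR4A1 (NUR77), the member best known as an immediate-early response to growth factors, read 8.77 to 8.97 log2 in NT_V, 8.69 to 8.83 in NT_E, 8.78 on each array of siSRC-1_V and 8.53 to 8.70 in siSRC-1_E. Of the hormone pairs, the SRC-1 siRNA groups did not overlap, as 12.8% of all probe sets did in that direction. Its estradiol changes were -0.15 log2 (-0.29 to -0.01) and -0.16 log2 (-0.30 to -0.02), with limma adjusted p-values of 0.328 and 0.168. NR4A3 (NOR1; chr9:99821885-99866891) had estradiol changes of 0.02 log2 (-0.10 to 0.14) and 0.08 log2 (-0.04 to 0.20) and was not called either. Its 3 siSRC-1_E arrays lay above the 3 siSRC-1_V arrays, as 12.9% of all probe sets did. The 3 receptors thus had different outcomes for estradiol, 1 called lower and 2 not called, and differences between them were not tested.

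IER3 (also known as IEX-1; chr6:30743199-30744547) had the largest estradiol change of the 9 genes with either siRNA. It read 10.79, 10.83 and 10.66 log2 in NT_V and 11.71, 11.83 and 11.72 in NT_E. With SRC-1 siRNA it read 10.74, 10.58 and 10.58 under vehicle and 11.71, 11.70 and 11.74 under estradiol. The rise was 1.99-fold with non-targeting siRNA (0.99 ± 0.06 log2, SE; limma adjusted p = 3.02e-06) and 2.12-fold with SRC-1 siRNA (1.08 ± 0.06; adjusted p = 1.41e-06). Both calls held with the control covariate, at 0.94 and 0.97 log2 (limma adjusted p = 0.000345 and 0.0178). The gene has 3 probe sets, 2 of which hold identical values on all arrays, and the least correlated pair had r = 0.9992, so they are not independent measurements. The other 2 gave 0.99 and 1.06 log2.

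IER2 and IER5, both nuclear proteins, were not called. IER2 read 8.37 to 8.52 log2 in NT_V, 8.34 to 8.40 in NT_E, 8.30 to 8.50 in siSRC-1_V and 8.06 to 8.27 in siSRC-1_E, where all arrays lay below the other 3 groups. Groups apart in that direction were found for 12.8% of all probe sets between siSRC-1_E and siSRC-1_V and for 11.5% between siSRC-1_E and NT_E. The share below all 3 groups was not computed. Its estradiol changes were -0.08 log2 (-0.23 to 0.07) and -0.19 log2 (-0.35 to -0.04; limma adjusted p = 0.119), and the control covariate turned both to 0.03 log2, so no direction is given. IER5 read 8.76 to 8.80 in NT_V, 8.47 to 8.71 in NT_E, 8.77 to 8.95 in siSRC-1_V and 8.44 to 8.75 in siSRC-1_E, so its estradiol arrays lay below the vehicle arrays of the same siRNA, as 10.9% and 12.8% of all probe sets did. The changes were -0.19 log2 (-0.37 to -0.01; limma adjusted p = 0.36) and -0.25 log2 (-0.43 to -0.07; 0.097). The latter was called with the replicate number as a block (0.0494), with a trended and robust variance (0.0461) and without siSRC-1_E replicate 2 (0.0479), while the control covariate turned it to 0.11 ± 0.15 log2 and moved the change with non-targeting siRNA to -0.01 ± 0.09 log2.

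**Figure D2:**
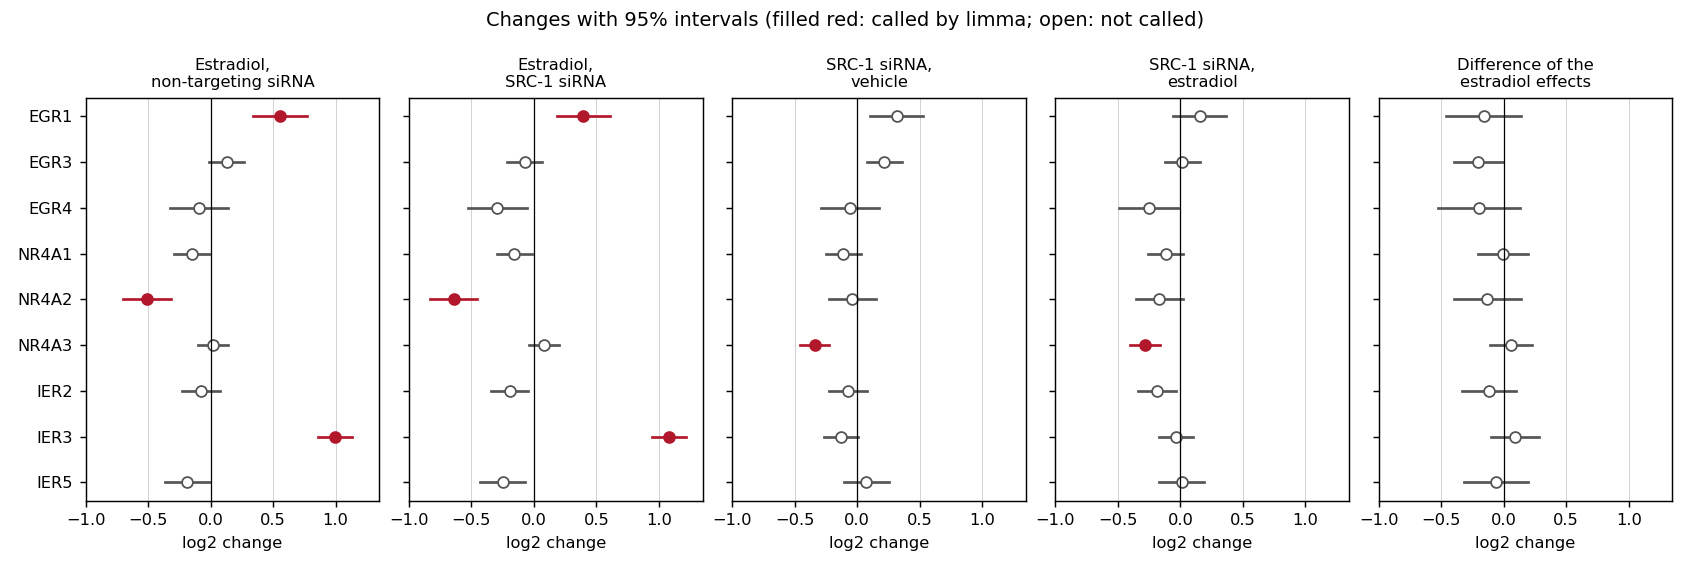
Log2 changes of the 9 genes in 5 comparisons (points) with 95% intervals from limma (bars); filled red points were called and open points were not. IER3 and EGR1 lie to the right of 0 and NR4A2 to the left in both estradiol panels, and NR4A3 lies to the left in both SRC-1 siRNA panels.

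The SRC-1 siRNA comparisons asked how the genes differ between depleted and control cells at the same treatment, and NR4A3 was the member that passed. It read 7.57, 7.58 and 7.71 log2 in NT_V and 7.21, 7.30 and 7.32 in siSRC-1_V, and under estradiol 7.57, 7.71 and 7.63 in NT_E and 7.38, 7.33 and 7.36 in siSRC-1_E. All 6 SRC-1 siRNA arrays lay below all 6 control arrays. Within vehicle and within estradiol, 3 arrays against 3, groups apart in that direction were found for 10.2% and 11.5% of all probe sets. By the limma call 0.945% and 1.07% were lower. NR4A3 fell 1.27-fold under vehicle (-0.34 ± 0.05 log2, SE; limma adjusted p = 0.0112) and 1.21-fold under estradiol (-0.28 ± 0.05; adjusted p = 0.0265). The vehicle call was lost without NT_V replicate 3 (limma adjusted p = 0.0508, -0.30 log2) and with only the compared groups in the fit (0.0983). The estradiol call was lost without NT_E replicate 2 or 3 (limma adjusted p = 0.111 and 0.0769), without siSRC-1_E replicate 1, 2 or 3 (0.07, 0.0755 and 0.089), with the control covariate (0.225) and with only the compared groups (0.0844). The change stayed between -0.24 and -0.32 log2 under estradiol in all of the alternatives.

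No other member passed for SRC-1 siRNA. EGR1 and EGR3 had vehicle groups that did not overlap, as 8.19% of all probe sets had in that direction, at 0.32 log2 (0.10 to 0.53; limma adjusted p = 0.179) and 0.22 log2 (0.08 to 0.36; 0.155). Under estradiol the same genes were at 0.15 log2 (-0.06 to 0.37) and 0.02 log2 (-0.12 to 0.16). IER2 was at -0.19 log2 under estradiol (-0.34 to -0.04; limma adjusted p = 0.216), in groups that did not overlap, as 11.5% of all probe sets did in that direction. IER2 under vehicle was at -0.07 log2 (-0.22 to 0.08). The other 5 genes, EGR4, NR4A1, NR4A2, IER3 and IER5, had changes from -0.13 to 0.07 log2 under vehicle and from -0.26 to 0.01 log2 under estradiol. Each SRC-1 siRNA comparison shares its arrays with an estradiol comparison, so these values are not independent of each other.

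The estradiol effect in SRC-1-depleted cells minus that in control cells gives the test of whether the response depends on the siRNA. The smaller fall of NCOA1 with SRC-1 siRNA under estradiol, a difference that was itself not called, applies to this comparison, and its part was not tested. None of the 9 genes passed in limma, the smallest adjusted p being 0.689, with 1 of 9 at an unadjusted p under 0.05. Over all 29094 probe sets 0% were called, with 2102 at an unadjusted p under 0.05, and a trended and robust variance called 2 probe sets, 0 of them members. EGR3 was the 1 gene, at -0.20 log2 with a 95% interval from -0.40 to -0.005. For the 3 genes called for estradiol the difference was -0.16 log2 for EGR1 (-0.46 to 0.14), -0.13 for NR4A2 (-0.40 to 0.14) and 0.09 for IER3 (-0.10 to 0.28). The lower bound for EGR1 is close in size to its rises of 0.56 and 0.40 log2, while both bounds for IER3 are well under its rises of 0.99 and 1.08 log2.

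For the 4 called genes the most similar probe sets over the 12 arrays are given as a description, from 11870 to 11872 probe sets with 1 symbol and a mean above the median. IER3 was closest to LOXL4, a lysyl oxidase (r = 0.995), TGFA, an EGF receptor ligand (0.992), and ADAMTSL5 (0.992). EGR1 was closest to CASP8AP2 (0.955), NRIP1, a corepressor of nuclear receptors (0.947), and ATXN7 (0.945). NR4A2 was closest to HIVEP2 (0.971), ANKRD28 (0.97) and ENC1 (0.968), and NR4A3 to PGGT1B (0.961), PPIL1 (0.957) and VCF1 (0.957). The arrays share 4 groups, so any probe set that separates the same groups has a high r.

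A list of 42 other immediate-early genes, of which 41 were measured, went in both directions with estradiol. With non-targeting siRNA 8 were called higher and 12 lower, and with SRC-1 siRNA 9 higher and 14 lower, against 1.85% and 0.873%, and 4.49% and 2.39%, of all probe sets. The medians of the list were -0.08 log2 in both. PLK2, a polo-like kinase, rose 2.32-fold with either siRNA, ZFP36, an RNA decay factor, 2.01-fold and 1.99-fold, and the AP-1 gene FOSL2 1.71-fold and 1.89-fold. PTGS2, the inducible prostaglandin synthase, rose 2.10-fold and 1.67-fold, and SGK1, a serum- and steroid-induced kinase, 1.39-fold and 1.60-fold, the value with non-targeting siRNA being given first. The phosphatase gene DUSP5 fell 1.58-fold and 1.79-fold, the pseudokinase gene TRIB1 1.57-fold and 1.76-fold, and ZFP36L1, another decay factor, 1.39-fold and 1.45-fold, while the phosphatase gene DUSP10 fell 1.65-fold and 1.37-fold and MYC, a growth regulator, 1.30-fold and 1.39-fold. Each of these genes was called in both comparisons. FOS and FOSB, which are often induced together with EGR1 by serum, were at 0.01 log2 (-0.10 to 0.13) and -0.14 log2 (-0.33 to 0.06) with non-targeting siRNA and were not called; they are named here after their values were seen. With the control covariate 12 and 3 of the 41 genes were called, and SGK1, PTGS2, DUSP10, TRIB1, DUSP5, ZFP36L1 and MYC lost their calls with SRC-1 siRNA.

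**Figure D3:**
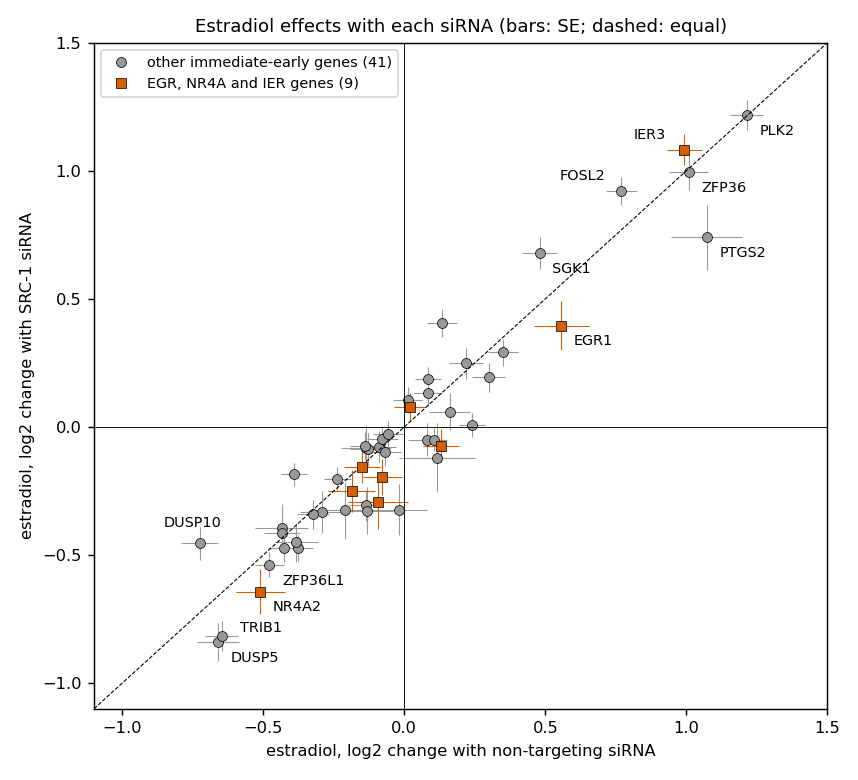
Estradiol effect in log2 with non-targeting siRNA (horizontal) against that with SRC-1 siRNA (vertical) for the 9 measured EGR, NR4A and IER genes (squares) and the 41 other immediate-early genes (circles); bars are standard errors from limma and the dashed line marks equal effects. IER3 lies beside ZFP36 near 1 log2 on both axes, and NR4A2 lies between ZFP36L1 and TRIB1 below 0 on both.

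SRC-1 siRNA called 1 of these 41 genes at each treatment. CYR61, a matricellular protein gene, fell 1.26-fold under vehicle (-0.34 ± 0.05 log2, SE; limma adjusted p = 0.0115), where 0.945% of all probe sets were called lower. Its call was lost without NT_V replicate 1 (0.0658) or siSRC-1_V replicate 2 (0.0541), and with only the compared groups (0.0563). JUN, an AP-1 subunit, rose 1.17-fold under estradiol (0.23 ± 0.05; limma adjusted p = 0.041), where 0.732% were called higher. That call held in 1 of the 12 fits that left out an array, namely the one without siSRC-1_V replicate 1, and the adjusted p lay between 0.0511 and 0.137 in the other 11, and it was lost with the replicate block (0.0622), only the compared groups (0.146), median centring (0.0663), the control covariate (0.231) and all probe sets tested (0.0515).

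Of 19 listed partners and regulators of these families, 16 were measured, and only the NAB corepressors were called. For estradiol 1 of the 16 was called in control cells and 1 in SRC-1-depleted cells, against 2.73% and 6.88% of all probe sets. For SRC-1 siRNA 0 were called under vehicle and 1 under estradiol, against 1.21% and 1.80%. Whether the list differs from all probe sets was not tested, and 1 call among 16 genes is too few to tell. NAB2, itself known as an EGR target, read 9.06, 9.08 and 8.93 log2 in NT_V and 9.55, 9.63 and 9.34 in NT_E. With SRC-1 siRNA it read 8.94, 8.91 and 8.96 under vehicle and 9.16, 9.22 and 9.07 under estradiol. Estradiol arrays lay above the vehicle arrays with either siRNA, as 10.1% and 12.9% of all probe sets did with non-targeting and SRC-1 siRNA. NAB2 rose 1.40-fold with non-targeting siRNA (0.49 ± 0.07 log2, SE; limma adjusted p = 0.00304), while with SRC-1 siRNA the change was 0.21 log2 (0.06 to 0.37; adjusted p = 0.105) and was called only with a trended and robust variance (0.0479). The difference of these effects was -0.27 log2 (-0.50 to -0.04; limma adjusted p = 0.646) and did not pass.

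NAB2 was also 1.28-fold lower with SRC-1 siRNA under estradiol (-0.36 ± 0.07 log2, SE; limma adjusted p = 0.0345). That call was lost in 5 of the 10 other settings, including the control covariate (0.336) and median centring (0.0529), and in 7 of the 12 fits that left out an array. These were the fits without NT_V replicate 1 (0.0549), NT_E replicate 1 (0.117) or 2 (0.123), siSRC-1_V replicate 3 (0.0544), and siSRC-1_E replicate 1 (0.0956), 2 (0.0521) or 3 (0.126). NAB1 went the other way with estradiol. It read 8.11, 7.76 and 8.03 log2 in NT_V, 7.74, 7.62 and 7.60 in NT_E, 8.09, 7.93 and 7.95 in siSRC-1_V and 7.58, 7.57 and 7.51 in siSRC-1_E. All vehicle arrays were above the estradiol arrays. Within non-targeting siRNA and within SRC-1 siRNA, groups apart in that direction were found for 10.9% and 12.8% of all probe sets. NAB1 fell 1.36-fold with SRC-1 siRNA (-0.44 ± 0.08 log2, SE; limma adjusted p = 0.00946; 0.229 with the control covariate), and its change of -0.32 log2 with non-targeting siRNA was not called (-0.50 to -0.13; adjusted p = 0.0823), except with the replicate block (0.0415), without the lowest probe sets, with a trended and robust variance, with array weights and without NT_V replicate 2.

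**Figure D4:**
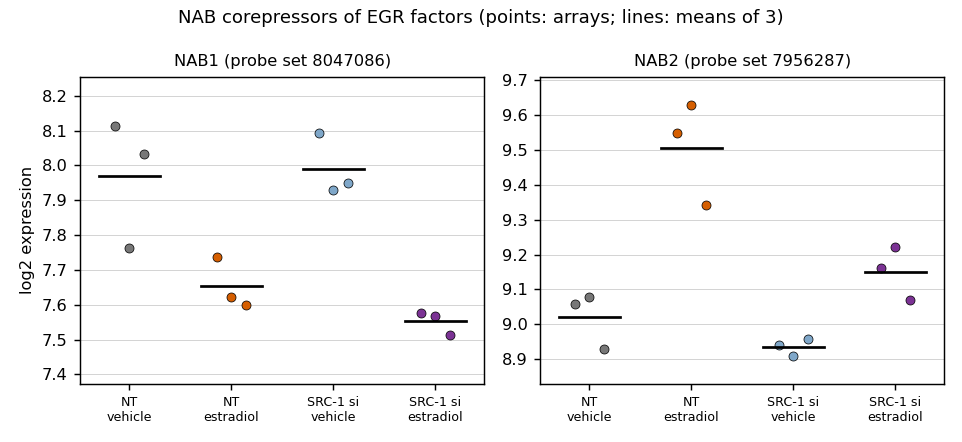
Log2 expression of NAB1 and NAB2 on the 12 arrays (points, 3 per group) with group means (lines); NT is non-targeting siRNA and SRC-1 si is siRNA against SRC-1. NAB2 is highest in the non-targeting estradiol arrays, at 9.34 to 9.63, and NAB1 is lower in the estradiol than in the vehicle arrays with either siRNA.

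The remaining 14 measured partners and regulators, among them serum response factor (SRF), its ternary complex partners ELK1, ELK3 and ELK4, CREB1 and its coactivators, and the RXR genes, whose products pair with NR4A1 and NR4A2, were not called in any of the 5 comparisons. The median change of all 16 was 0.03 log2 for estradiol with non-targeting siRNA and -0.04 log2 with SRC-1 siRNA.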

How the data were processed

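RNA from each sample was hybridised to 1 Affymetrix Human Gene 1.0 ST array. The authors deposited log2 values for each probe set, made from the array files with the affy package, per the design text, and tested with limma; versions, background correction, normalization and summarization are not given in the sources used here. No further normalization was applied. The table has 33297 probe sets; 4203 whose identifiers precede the first annotated one (7896740) were taken to be controls, which is inferred, and were left out. Of the 29094 tested, 19460 carry 1 symbol.

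The 4 group means were estimated together by limma 3.58.1 (R 4.3.3) (3.15 prior and 8 residual degrees of freedom), without a replicate block; tests are two-sided, and the standard error between groups had a median of 0.071 log2. The threshold is that of the design text. Labels call the replicates biological; p-values measure the spread among them. Precision is limited by the array number.

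The members, gene lists, tests and alternatives were chosen with earlier results of these data known. Named were the measured members, NCOA1, up to 4 called genes per list, comparison and direction with the smallest p, and for each called member the 3 probe sets with the highest Pearson correlation. The fit was tested on simulated data, with independent noise for each probe set and array and no shift shared across an array. That simulation therefore does not bear on the control deviation that moved with estradiol. Alternatives were a replicate block, only the compared groups, leaving out the lowest 40% of probe sets, quantile normalization, median centring, the control mean as a covariate, all probe sets, a trended and robust variance, array weights, an adjusted p under 0.01, any probe set of a gene, and leaving out each array.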

Additional observations from a re-analysis of the deposited data

How the results depend on the processing

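Of the 3 members called for estradiol with non-targeting siRNA, all 3 were called in each of the 12 fits that left out 1 array (3 to 3), and with SRC-1 siRNA 2 to 3 were. With only the compared groups 2 remained called for non-targeting siRNA, and an adjusted p under 0.01 gave 2 with SRC-1 siRNA. The control covariate left 1 (IER3) in each, and 0 for SRC-1 siRNA under estradiol; the cause was not tested. For SRC-1 siRNA under vehicle and under estradiol the 1 call fell to 0 with only the compared groups in the fit, and with an adjusted p under 0.01. It was 0 to 1 when an array was left out. The difference of the estradiol effects gave 0 members in every setting run. No member or other gene named here changed sign in a comparison in which it was called; values that were not called did, among them EGR4, IER2 and IER5 for estradiol.

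Counts over all probe sets that moved over 1.5 times were, for estradiol with non-targeting siRNA (793), 366 with the covariate and 422 at an adjusted p under 0.01. For estradiol with SRC-1 siRNA (2001) they were 106, 801, 958 with only the compared groups, and 1042 to 2956 without 1 array. For SRC-1 siRNA under vehicle (352) they were 90 with the compared groups, 145 at the stricter threshold, 728 without the lowest probe sets, 857 with a trended and robust variance, and 169 to 338 without 1 array. Under estradiol (524) they were 174, 167, 1117 and 1246 in the same order, 121 with the covariate, and 216 to 547. Of the 41 other immediate-early genes, 12 (of 20) and 3 (of 23) were called for estradiol with the covariate. For SRC-1 siRNA 0 to 9 were called across settings, against 1 at each treatment, and of the 16 partners and regulators 0 to 2 in any comparison.

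With the replicate block, 3, 4, 1, 1 and 0 members were called in the 5 comparisons, IER5 being added for estradiol with SRC-1 siRNA. Same-numbered arrays correlated at -0.035 to 0.209 in their deviations from the group means, not over 0.1 in every pair, so the numbers were not taken to pair the arrays. The best match was the array of the same number in 8 of 12 cases, a hint from the data and not the design. Each case had only 3 arrays to choose from, so such matches also arise without pairing. The 12 cases share arrays and are not independent. The block also added NAB1 for estradiol with non-targeting siRNA and removed JUN for SRC-1 siRNA under estradiol.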

Other observations

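In the NT_E group, replicate 3 had the lowest value of the 3 arrays for 7 of the 9 measured genes and replicate 2 the highest for 7 of the 9, and in the siSRC-1_E group replicate 3 was lowest for 5 of 9. In NT_V and siSRC-1_V no replicate was lowest for more than 4 of 9. NT_V replicate 3, however, was highest for 5 of 9 and lowest for 4 of 9, and siSRC-1_V replicate 1 was highest for 4 and lowest for 4. The same ranks over all probe sets were not computed, so whether they are particular to these genes was not tested. EGR1 in NT_E had the widest spread among the groups of the 4 called genes, at an SD of 0.227 log2, and NAB2 in the same group had an SD of 0.147 log2, with replicate 3 lowest in both. Without NT_E replicate 3 the estradiol change with non-targeting siRNA went from 0.56 to 0.67 log2 for EGR1, from 0.49 to 0.57 for NAB2, from -0.51 to -0.48 for NR4A2 and from 0.99 to 1.01 for IER3. Replicate 3 was the lowest NT_E array for EGR1, NAB2 and NR4A2, so the direction of these shifts was fixed by leaving it out. All 4 genes were called with and without that array.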
